A study of Rattus norvegicus with 16 samples.

Results

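The genes described here encode 9 membrane transporters of organic anions and cations that carry drugs, toxins and metabolites across the renal tubule. They were chosen by name, with earlier results of these data known, out of 35849 genes measured in rat kidney. Slc22a6 (ENSRNOG00000018215), Slc22a8, Slc22a7, Slco4c1 and Slc22a2 encode uptake carriers, known as OAT1, OAT3, OAT2, OATP4C1 and OCT2. Slc22a12, Slc47a1, Abcc2 and Abcc4 encode URAT1, MATE1, MRP2 and MRP4, which work at the luminal side of the tubule cell. All 9 were measured and passed the filter on low counts in each of the 6 comparisons.

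RNA sequencing was done on kidney from 16 male Sprague Dawley rats, 4 in each of 4 groups, to ask how gene expression differs between diabetic nephropathy (DN) and treatment with sinomenine (SIN), an alkaloid. The DN group and both SIN groups had been injected with streptozotocin at 45 mg/kg, a toxin of insulin-producing cells, were kept if their blood glucose was over 16.7 mmol/L, and ate a diet rich in glucose and fat. For 8 weeks the SIN20 group also received SIN each day by gavage at 20 mg/kg and the SIN40 group at 40 mg/kg. By the study's summary, DN rats without SIN were given vehicle. The normal group, whose treatment is labelled sham, received citrate buffer and a normal diet, and all rats were 6 to 8 weeks old at the start. The normal group therefore differs from the others in toxin and diet together. Whether the normal rats also received vehicle by gavage is not stated. Serial numbers of the libraries follow each other within a group, so any library batch that followed these numbers could not be told apart from group.

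Secretion of organic ions by the proximal tubule takes place in series. Carriers in the basolateral membrane take anions or cations from blood into the cell, with OAT1 and OAT3 exchanging anions for dicarboxylates such as alpha-ketoglutarate and OCT2 letting cations in along the membrane voltage. Luminal carriers then pass the solutes into urine: MATE1 exchanges cations for protons, and MRP2 and MRP4 are pumps driven by ATP. URAT1 works in the opposite direction and takes urate back from the filtrate.

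Levels of a gene are in CPM, its counts divided by the library size, which was scaled by TMM factors taken over all 16 rats. The rats had 19616284 to 25216979 counts each. Slc22a7 was the most thinly counted of the 9 genes, with 182 to 810 counts per rat, and Slc22a6 had 17909 to 38679. All 12 markers of the proximal tubule that are not among the 9 genes were detected, and their sum ranged from 13553 to 20487 CPM over the 16 rats. A sum of 7 stroma and smooth muscle markers was highest in DN replicate 3, so the counts of the 9 genes in the comparisons with the DN group are given without it further on. In whole kidney, fewer cells of a type and less RNA per cell cannot be told apart.

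Promoters of 7 of the 9 genes could be matched in the RefSeq table for the rat assembly GRCr8. Printed here, 5′ to 3′ on the strand of the gene, are the 250 bases before the start of 6 of them: the 3 genes with an unadjusted p under 0.05 and lower values in both SIN groups than in the DN group (Slc22a2, Slc22a7 and Slc22a12), and the 3 genes in which a searched motif was found (Abcc2, Slco4c1 and Slc22a8). Capitals mark the motif.
Slc22a2, chr1:50711020-50711269, minus strand: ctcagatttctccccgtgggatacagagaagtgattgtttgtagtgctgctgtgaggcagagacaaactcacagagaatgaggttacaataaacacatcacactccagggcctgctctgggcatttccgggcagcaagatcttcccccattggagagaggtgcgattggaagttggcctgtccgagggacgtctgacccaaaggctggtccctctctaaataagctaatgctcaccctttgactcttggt
Slc22a7, chr9:22045248-22045497, plus strand: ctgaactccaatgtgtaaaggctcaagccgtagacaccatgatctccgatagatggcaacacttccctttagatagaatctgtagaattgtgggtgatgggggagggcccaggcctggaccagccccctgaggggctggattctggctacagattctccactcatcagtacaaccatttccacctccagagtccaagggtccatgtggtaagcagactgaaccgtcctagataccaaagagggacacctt
Slc22a12, chr1:213281381-213281630, minus strand: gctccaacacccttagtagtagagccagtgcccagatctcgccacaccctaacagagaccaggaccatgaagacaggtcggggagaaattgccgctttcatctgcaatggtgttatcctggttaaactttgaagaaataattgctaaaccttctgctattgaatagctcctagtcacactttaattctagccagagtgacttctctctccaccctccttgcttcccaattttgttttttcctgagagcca
Abcc2, chr1:252613625-252613874, plus strand: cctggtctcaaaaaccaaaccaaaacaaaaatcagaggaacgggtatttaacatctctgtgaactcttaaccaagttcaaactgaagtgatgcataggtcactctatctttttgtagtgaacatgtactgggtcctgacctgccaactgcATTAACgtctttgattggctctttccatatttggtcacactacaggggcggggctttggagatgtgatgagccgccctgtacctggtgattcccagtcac
Slco4c1, chr9:104676463-104676712, minus strand: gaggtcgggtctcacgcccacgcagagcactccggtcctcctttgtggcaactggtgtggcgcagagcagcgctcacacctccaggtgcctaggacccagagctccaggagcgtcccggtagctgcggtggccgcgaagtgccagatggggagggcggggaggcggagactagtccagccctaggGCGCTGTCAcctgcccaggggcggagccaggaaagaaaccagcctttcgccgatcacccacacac
Slc22a8, chr1:214927034-214927283, plus strand: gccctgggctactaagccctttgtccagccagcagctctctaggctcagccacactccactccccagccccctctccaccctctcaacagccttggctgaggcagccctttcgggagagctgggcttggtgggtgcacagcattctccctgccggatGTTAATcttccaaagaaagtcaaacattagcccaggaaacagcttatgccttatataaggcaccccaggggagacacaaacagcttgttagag
The searched motifs were GTTAAT, a half-site of HNF1, CAAAGTCCA, a site type of HNF4, TGACNNNGC, the core of the antioxidant response element, and the E-box CACGTG, each on both strands. The HNF1 half-site began 93 bases before the start in Slc22a8 and, on the opposite strand, 100 bases before it in Abcc2. It was present in 6.45% of the 33469 promoter windows of the same length in the table. The antioxidant response element lay 65 bases before the start of Slco4c1 on the opposite strand, against 10.1% of all windows with this motif. The HNF4 and E-box letters were in 0.338% and 5.59% of all windows and in 0 of the 7. Abcc4, the remaining matched gene, held 0 of the 4 motifs, as did Slc22a2, Slc22a7 and Slc22a12. A match is a description of letters and not a measured site. On the same assembly Slc22a6 and Slc22a8 are neighbours on chromosome 1, and Slc47a1 lies beside Slc47a2.

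Levels can be set side by side between genes only per length, as CPM per kilobase of the gene length in the table. In the normal group Slc22a6 was highest, at 509.7 ± 116 CPM per kilobase (SD, n = 4), followed by Slc22a8 at 404 ± 88.8, Slc22a2 at 298 ± 45.2, Slc22a12 at 247 ± 22.8 and Slc47a1 at 198 ± 19.0. The other genes were far lower: Abcc4 was at 18.3 ± 0.888, Slco4c1 at 8.33 ± 1.07, Abcc2 at 7.32 ± 1.83 and Slc22a7 at 6.34 ± 0.823 CPM per kilobase. Ranges over rats did not overlap between Slc22a12 and Slc47a1, between Slc47a1 and Abcc4, or between Abcc4 and Slco4c1. All other neighbours in this order overlapped. Slc22a6 and Slc22a8 held the first 2 places in every group. Slc22a2 was the third of the order in the normal group, the fourth in the DN group, at 191 ± 38.7 CPM per kilobase, and the fifth in both SIN groups, at 122 ± 22.1 for 20 mg/kg and 128 ± 16.3 for 40 mg/kg. In the SIN groups its range did not overlap that of Slc47a1 above it.

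**Figure D1:**
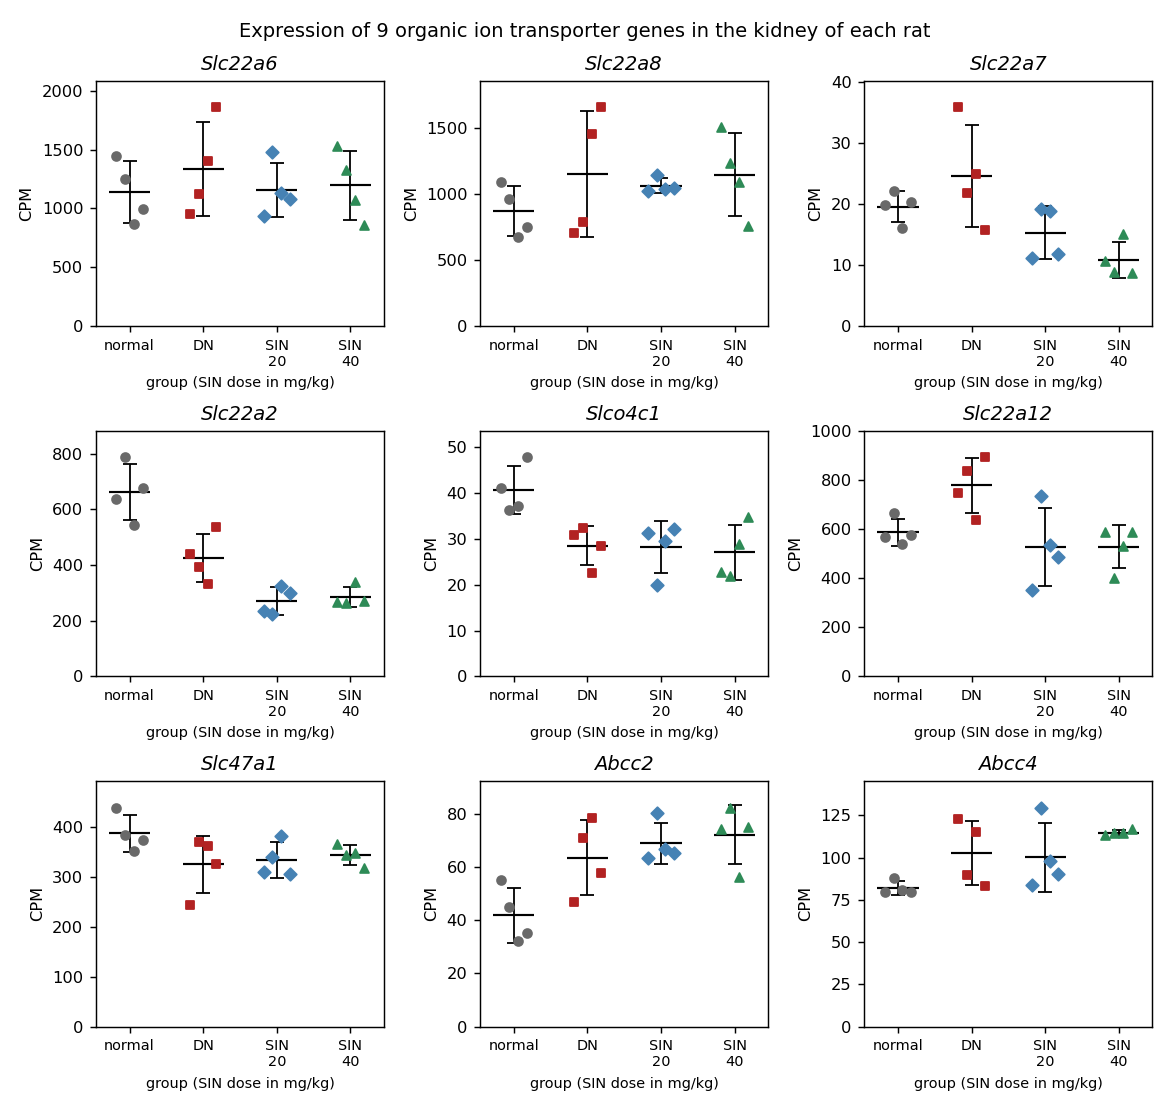
CPM (linear axis from 0, a separate scale in each panel) of the 9 transporter genes in each of 4 rats per group, with the mean as a line and the SD as a bar. Slc22a2 falls from 661 CPM in the normal group to 424 in the DN group and 271 and 284 in the SIN groups, while Slc22a6 and Slc22a8 overlap between all groups.

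The first comparison asks which of these transporters differ between the DN and the normal kidney. The cation uptake gene Slc22a2 and the anion carrier gene Slco4c1 were lower in the DN group, and the urate carrier gene Slc22a12 was higher. These 3 of the 9 genes passed an adjusted p under 0.05 in edgeR's quasi-likelihood test, against 19.5% of the 15775 genes tested. The 1 higher gene stood against 8.74% of all genes, and the 2 lower ones against 10.8%. None of the 3 reached a log2 fold change of 1 in either direction, as 3.80% of all genes did together with the adjusted p. At an unadjusted p under 0.05 there were 5 of 9, where the share of all genes was 36.9%. The median log2 fold change was 0.32 over the 9 genes and 0.002 over all genes.

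Among the uptake genes, Slc22a2 encodes OCT2, which takes up metformin and creatinine. Its values were 637, 786, 544 and 677 CPM in the normal rats and 438, 392, 332 and 535 CPM in the DN rats. Every DN rat was below every normal rat. DN over normal gave a log2 fold change of -0.64 (SE, the standard error of the fit, 0.16, edgeR quasi-likelihood adjusted p = 0.027), and the adjusted p ranged from 0.00226 to 0.076 over 15 alternatives. It passed in 10 of them and missed only with 1 rat left out (normal replicate 1 or 4, or DN replicate 1, 2 or 3), where the log2 fold change stayed between -0.77 and -0.54 over all left-out rats.

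Slco4c1 encodes OATP4C1, a carrier of thyroid hormones and cardiac glycosides. It was at 41.2, 36.4, 37.2 and 47.8 CPM in the normal rats and at 30.8, 32.5, 22.5 and 28.4 CPM in the DN rats. Here too the groups did not overlap, which was the case for 2 of the 9 genes and for 24.3% of all genes. Its log2 fold change was -0.51 (SE 0.14, edgeR quasi-likelihood adjusted p = 0.0308). It passed in 8 of 15 alternatives, and the adjusted p ranged from 0.00876 to 0.0937, above the threshold without normal replicate 1, 3 or 4 or DN replicate 1, 3 or 4 and with the replicate number as a block.

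Slc22a6, Slc22a8 and Slc22a7 did not pass. Slc22a6, the carrier of para-aminohippurate, was at 1449.6, 1249.9, 868 and 993 CPM in the normal rats and at 956, 1122, 1403 and 1859 CPM in the DN rats. Slc22a8, a carrier with broader substrates, was at 1096, 962, 678 and 753 CPM and, in the DN rats, at 702, 789, 1456 and 1657 CPM. In both genes DN replicates 1 and 2 lay within the normal range, whereas DN replicate 4 was above all normal rats. The log2 fold changes were 0.23 for Slc22a6 (SE 0.22, edgeR quasi-likelihood adjusted p = 0.485) and 0.40 for Slc22a8 (SE 0.28, adjusted p = 0.324). Among the 9 genes the DN rats spread most in Slc22a8, with a coefficient of variation of 41.4% and a highest value 2.36 times the lowest. The less abundant Slc22a7 was at 19.8, 22.0, 16.02 and 20.3 CPM in the normal rats and at 35.8, 21.7, 24.9 and 15.8 CPM in the DN rats, with a log2 fold change of 0.33 (SE 0.22, adjusted p = 0.302).

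Of the luminal genes, Slc22a12 encodes URAT1, the target of uricosuric drugs. It was at 569, 665, 539.7 and 575 CPM in the normal rats and at 746, 837, 638 and 893 CPM in the DN rats. Only DN replicate 3 was within the normal range. The log2 fold change of 0.41 (SE 0.13, edgeR quasi-likelihood adjusted p = 0.048) was near the threshold and passed in 6 of 15 alternatives, with adjusted p from 0.00952 to 0.124. It missed with no filter on low counts (adjusted p = 0.0658), a joint fit of the 16 rats (0.109), the replicate number as a block (0.0766), and without normal replicate 1, 3 or 4 or DN replicate 1, 2 or 4 (0.078 to 0.124).

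The pump genes had higher means in the DN group without passing the threshold. Abcc2, whose protein MRP2 exports glutathione and glucuronide conjugates, was at 55.3, 44.9, 32.2 and 35.2 CPM in the normal rats and at 46.7, 70.8, 78.7 and 57.7 CPM in the DN rats. Only DN replicate 1 was inside the normal range. The log2 fold change was 0.60 (SE 0.20, edgeR quasi-likelihood adjusted p = 0.0595), and Abcc2 passed in 5 of 15 alternatives, which were DESeq2 (adjusted p = 0.0218), edgeR's exact test (0.0297), a joint fit of the 16 rats (0.0266), and the fits without normal replicate 1 (0.0417) or DN replicate 1 (0.0441). Abcc4, whose protein MRP4 exports cyclic nucleotides and urate, was at 79.7, 87.9, 81.1 and 79.5 CPM in the normal rats and at 123, 89.7, 115 and 83.5 CPM in the DN rats, with a log2 fold change of 0.32 (SE 0.13, adjusted p = 0.0985, or 0.0441 without DN replicate 4). The cation exchanger gene Slc47a1 was at 438, 384, 351 and 373 CPM in the normal rats and at 244, 369.6, 361 and 324 CPM in the DN rats, with a log2 fold change of -0.25 (SE 0.14, adjusted p = 0.213). The groups overlapped in all these 3 genes.

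**Figure D2:**
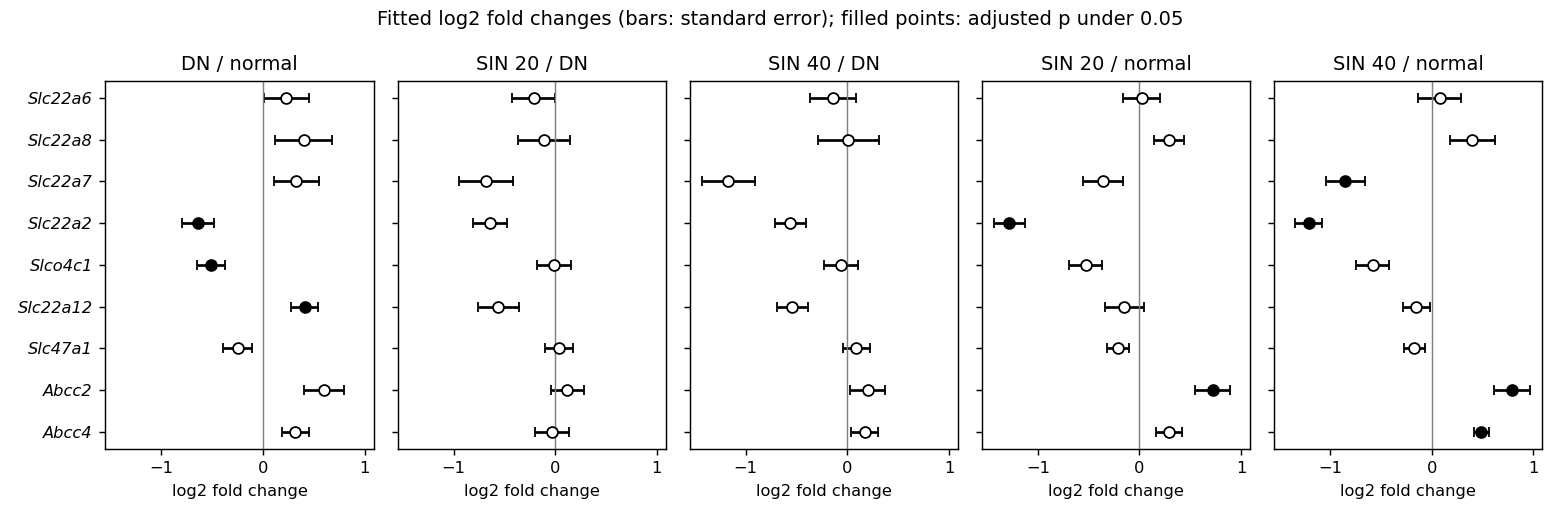
Fitted log2 fold change (horizontal axis, 0 marked by a grey line) of each transporter gene in 5 comparisons, with the standard error as a bar and filled points for an adjusted p under 0.05 by edgeR's quasi-likelihood test. Filled points number 3 for DN over normal, 0 for each SIN dose over DN, 2 for SIN20 over normal and 4 for SIN40 over normal.

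The next comparisons ask what SIN changed in the diabetic kidney. Slc22a2, Slc22a7 and Slc22a12 had lower means at both doses than in the DN group, but 0 of the 9 genes passed the adjusted threshold at either dose in edgeR's quasi-likelihood test. The share of all genes called was 0.0% of 15724 at 20 mg/kg and 0.0% of 15530 at 40 mg/kg, with smallest adjusted p = 0.0585 and 0.14 over all genes. At an unadjusted p under 0.05, 3 of the 9 genes differed at 20 mg/kg and 3 at 40 mg/kg, the same 3 genes, all lower. Over all genes tested, 6.24% at 20 mg/kg and 7.21% at 40 mg/kg were lower at that level, and 15.4% and 17.1% differed in either direction. Both doses are compared with the same DN rats, 4 in number, so the doses are not independent of each other here. The median log2 fold change of the 9 genes was -0.11 at 20 mg/kg and -0.06 at 40 mg/kg, against -0.007 and 0.007 over all genes.

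Slc22a2 was at 236, 225, 326 and 299 CPM in the SIN20 rats and at 266, 262, 338 and 269.9 CPM in the SIN40 rats. All SIN20 rats were below all DN rats, and at 40 mg/kg only replicate 3 exceeded the lowest DN rat. The log2 fold change over DN was -0.64 at 20 mg/kg (SE 0.17, unadjusted p = 0.00374, edgeR quasi-likelihood adjusted p = 0.27) and -0.56 at 40 mg/kg (SE 0.15, unadjusted p = 0.00411, edgeR adjusted p = 0.195). With DESeq2 the adjusted p was 0.0295 at 20 mg/kg and 0.0219 at 40 mg/kg, and these were the lowest values over 15 alternatives, whose highest were 0.544 and 0.406. Both DN and SIN values lay below the normal rats, so the means of the SIN groups were farther from the normal mean than the DN mean was in this gene.

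Slc22a7 encodes OAT2, a carrier of cyclic nucleotides and creatinine. It was at 11.2, 19.2, 18.9 and 11.8 CPM in the SIN20 rats and at 10.6, 8.90, 15.1 and 8.71 CPM in the SIN40 rats. All 4 rats at 40 mg/kg were below all DN rats, and below all normal rats, whereas 2 of 4 at 20 mg/kg were within the DN range. Slc22a7 had a log2 fold change over DN of -0.68 at 20 mg/kg (SE 0.27, unadjusted p = 0.0277, edgeR quasi-likelihood adjusted p = 0.294) and -1.17 at 40 mg/kg (SE 0.26, unadjusted p = 0.00124, edgeR adjusted p = 0.175). DESeq2 gave 0.00304 after adjustment at 40 mg/kg and edgeR's exact test 0.0109, while the highest value over the alternatives was 0.392. Leaving out single rats moved the log2 fold change between -1.37 and -0.95.

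Slc22a12 was at 353, 736, 538 and 486 CPM in the SIN20 rats and at 589.9, 403, 533 and 587 CPM in the SIN40 rats. The 40 mg/kg group was below every DN rat, and at 20 mg/kg only replicate 2 reached into the DN range. For Slc22a12 the log2 fold change over DN was -0.56 at 20 mg/kg (SE 0.20, unadjusted p = 0.0214, edgeR quasi-likelihood adjusted p = 0.287) and -0.54 at 40 mg/kg (SE 0.15, unadjusted p = 0.00542, edgeR adjusted p = 0.199). DESeq2 gave an adjusted p = 0.0252 at 40 mg/kg. Unlike Slc22a2, this gene was not called against the normal group at either dose, with log2 fold changes over normal of -0.15 at both (SE 0.19 and 0.13, edgeR adjusted p = 0.705 and 0.557). By count, the groups did not overlap in 1 of 9 genes at 20 mg/kg and 2 of 9 at 40 mg/kg, where the shares of all genes were 8.85% and 10.7%.

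The other 6 genes had log2 fold changes over DN between -0.21 (Slc22a6) and 0.12 (Abcc2) at 20 mg/kg and between -0.14 (Slc22a6) and 0.20 (Abcc2) at 40 mg/kg. Their rats overlapped with the DN rats in every case. Slc22a8 was at 1022, 1144, 1042 and 1048 CPM in the SIN20 rats, a coefficient of variation of 5.13% where the DN rats had 41.4%. This difference in spread was not tested. At 40 mg/kg Slc22a8 was again dispersed, at 1506, 1238, 1089 and 759 CPM. The reverse held for Abcc4, which was at 113, 114, 114 and 117 CPM in the SIN40 rats and at 83.5, 129.7, 98.1 and 90.2 CPM in the SIN20 rats. Slc47a1 ranged from 304 to 382 CPM over the 8 SIN rats, and Slc22a6 from 857 to 1527 CPM.

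Between the doses, 0 of the 9 genes differed at an adjusted p under 0.05 (0.00639% of 15657 genes did) and 0 at an unadjusted p under 0.05 (4.98%) in edgeR's quasi-likelihood test, and DESeq2 and edgeR's exact test called 0 of 9 as well. Slc22a7 was farthest from 0, with a log2 fold change for 40 over 20 mg/kg of -0.50 (SE 0.24, unadjusted p = 0.0622, edgeR adjusted p = 0.961). The other 8 genes lay between -0.06 and 0.20 with standard errors of 0.10 to 0.21, which does not show that the doses acted alike. The SIN20 and SIN40 rats overlapped in all 9 genes, and 3.3% of all genes did not overlap.

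Set against the normal group, both SIN groups differed in Slc22a2 and Abcc2, and the 40 mg/kg group also in Slc22a7 and Abcc4. By edgeR's quasi-likelihood test 2 of 9 genes were called at 20 mg/kg, where 6.36% of 15877 genes were, and 4 of 9 at 40 mg/kg, where 5.97% of 15735 genes were. At 20 mg/kg 1 was higher and 1 lower, with 2.77% and 3.58% of all genes in these directions, and at 40 mg/kg 2 were higher and 2 lower, with 2.28% and 3.69%. The 3 comparisons with the normal group share the same 4 normal rats. Slc22a2 was lower by a log2 fold change of -1.28 at 20 mg/kg (SE 0.15, adjusted p = 0.00159) and -1.21 at 40 mg/kg (SE 0.13, adjusted p = 0.000866), and it passed in all 15 alternatives at each dose. Among the 9 genes, it alone passed with at least a log2 fold change of 1, as 2.48% and 2.47% of all genes did. Every SIN rat was below every normal rat.

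Abcc2 was at 63.5, 80.3, 67.0 and 65.2 CPM in the SIN20 rats and at 74.5, 82.5, 56.4 and 75.2 CPM in the SIN40 rats. All 8 were above the normal rats, of which the highest was at 55.3 CPM. Over normal, Abcc2 had log2 fold changes of 0.72 at 20 mg/kg (SE 0.17, edgeR quasi-likelihood adjusted p = 0.031) and 0.79 at 40 mg/kg (SE 0.18, adjusted p = 0.0282). The adjusted p reached 0.097 and 0.0918 over the alternatives: the call was lost at 20 mg/kg without normal replicate 2, 3 or 4 or SIN20 replicate 2, 3 or 4, and at 40 mg/kg without normal replicate 3 or 4 or SIN40 replicate 1, 2 or 4.

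Abcc4 was higher than normal at 40 mg/kg by a log2 fold change of 0.49 (SE 0.07, edgeR quasi-likelihood adjusted p = 0.00386), with all 4 rats above all normal rats and a call in all 15 alternatives. At 20 mg/kg its log2 fold change was 0.29 (SE 0.13, adjusted p = 0.239), and the groups overlapped. Slc22a7 was lower than normal at 40 mg/kg by a log2 fold change of -0.85 (SE 0.19, adjusted p = 0.0278), and the call was lost in a joint fit of the 16 rats (adjusted p = 0.052) and without normal replicate 1, 2 or 4 or SIN40 replicate 1, 2 or 4 (adjusted p of at most 0.0856). Slco4c1 was at 31.4, 19.9, 29.5 and 32.1 CPM in the SIN20 rats and at 22.8, 21.9, 28.9 and 34.7 CPM in the SIN40 rats, below all normal rats. Its adjusted p over normal was 0.084 at 20 mg/kg and 0.0583 at 40 mg/kg in edgeR's quasi-likelihood test. Slco4c1 passed in 3 of 15 alternatives at 20 mg/kg, which were DESeq2 (0.027), edgeR's exact test (0.0373) and the replicate number as a block (0.0459). At 40 mg/kg it passed in 4 of 15, the same alternatives (0.011, 0.016 and 0.016) and the fit without SIN40 replicate 4 (0.0204), while without normal replicate 4 the adjusted p reached 0.216 at 20 mg/kg and 0.161 at 40 mg/kg. Groups did not overlap in 3 of 9 genes at 20 mg/kg and 5 of 9 at 40 mg/kg, where the shares of all genes were 13.6% and 13.9%.

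All 9 genes are known from the proximal tubule, so their levels were also taken relative to 12 other markers of that segment in the same rat, as a difference of log2 CPM. The mean log2 CPM of these markers was 9.89 ± 0.16 (SD, n = 4) in normal, 9.72 ± 0.34 in DN, 9.70 ± 0.10 in SIN20 and 9.82 ± 0.15 in SIN40 rats. On this relative scale Abcc2 was higher in the DN than in the normal group by 0.78 and Slc22a6 by 0.38, and in both every DN rat was above every normal rat. In Slc22a6 this was by less than the rounding, as normal replicate 2 and DN replicate 3 were both at 0.40. Slc22a12 was higher by 0.57, Slc22a8 by 0.50, Abcc4 by 0.48 and Slc22a7 by 0.45, with groups that overlapped. Slc47a1 differed by -0.09, also with overlap. Slc22a2 differed by -0.47 and Slco4c1 by -0.34, and their groups then overlapped. Between rats these genes did not rise closely with the summed markers (Pearson r 0.10 and -0.50 without group means), so the subtraction can widen their spread. Whether the overlap reflects tubule content was not tested. The SIN groups kept a relative Slc22a2 level below all normal rats, with differences of -1.09 at 20 mg/kg and -1.14 at 40 mg/kg. Against the DN group, however, the rats overlapped on this scale in all 9 genes at both doses. The differences over DN included -0.62 for Slc22a2 at 20 mg/kg. At 40 mg/kg they included -1.25 for Slc22a7 and -0.67 for Slc22a12. Of the 12 markers, Slc7a13 and Slc5a12 had the lowest log2 fold changes in DN over normal, -1.51 and -1.07, and the median of the 12 was 0.03. Without these markers, a choice made after their values were seen, the mean of the other 10 was 9.98 ± 0.21 in normal and 10.05 ± 0.32 in DN rats. The difference between DN and normal was then 0.54 for Abcc2, still without overlap, and 0.14 for Slc22a6, whose groups overlapped. It was -0.33 for Slc47a1, which no longer overlapped. For Slc22a2 it was -0.72 and for Slco4c1 -0.58, and the groups still overlapped in both of these genes. These relative values are descriptions without a test.

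Segments of the proximal tubule were also looked at one by one. A sum of 6 markers of its late part, the S3 segment (Slc7a13, Slc5a1, Cyp7b1, Acy3, Slc3a1 and Atp11a), ran from 6119 to 7115 CPM in the normal rats, 4584 to 5658 in the DN rats, 3736 to 4718 in the SIN20 rats and 3836 to 4380.0 in the SIN40 rats. In Slc22a2 too, the normal rats were highest and the means of both SIN groups lowest. The sum gives most weight to abundant markers. Slc3a1 averaged 3233 CPM in the normal and 2860 CPM in the DN rats, and Slc7a13 averaged 2068 and 728 CPM. The 6 markers did not fall together: in DN over normal, Acy3 had a log2 fold change of 0.07, Cyp7b1 -0.09 and Slc5a1 0.50. Their median log2 fold change over normal was -0.13 in DN, -0.25 in SIN20 and -0.43 in SIN40 rats. Of these 6 markers, 1 was higher (Slc5a1, a glucose carrier gene) and 1 lower in DN over normal at an adjusted p under 0.05. The shares of all genes were 8.74% and 10.8%. In each SIN group over normal 2 were lower, against 3.58% of all genes at 20 mg/kg and 3.69% at 40 mg/kg. Slc7a13, an amino acid carrier gene, was lower at log2 fold changes of -1.51, -1.70 and -1.44 for DN, SIN20 and SIN40 over normal (adjusted p = 0.00113, 0.00145 and 0.00276 in the edgeR quasi-likelihood fit). Slc3a1, another amino acid carrier gene, was lower in the SIN groups at -0.51 and -0.54 (adjusted p = 0.029 and 0.0183). After group means were removed, Slc22a2 and the S3 sum had a Pearson r of 0.78 over the 16 rats, with both read from the same library at its depth. The other transporter genes ran from -0.43 (Abcc4) to 0.43 (Slco4c1) with this sum. Slc3a1, the most abundant of the 6 markers, was also among the 3 genes most like Slc22a2 (r = 0.74 without group means). The part of the S3 markers in the Slc22a2 result was not tested. A sum of 5 markers of the early segments ran from 2806 to 4452 CPM in the normal, 984 to 2973 in the DN, 1949 to 3538 in the SIN20 and 2135 to 3596 in the SIN40 rats.

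**Figure D3:**
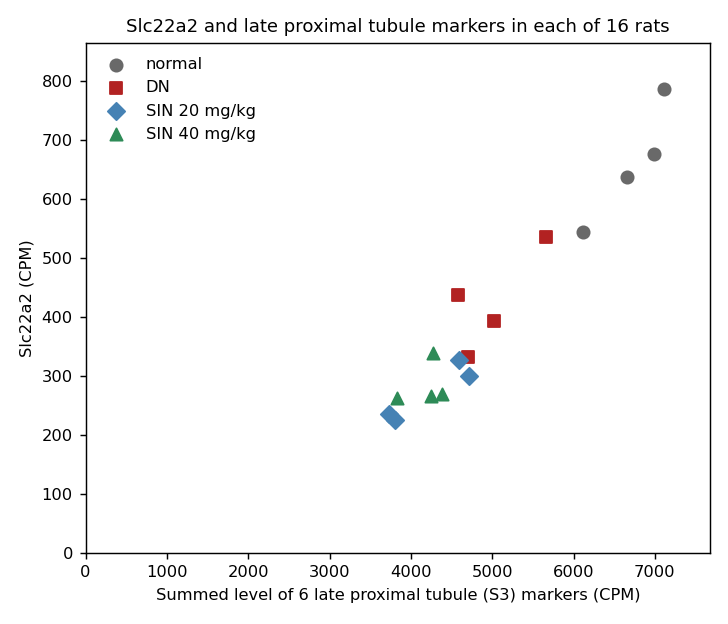
Slc22a2 (vertical axis, CPM) against the summed CPM of 6 markers of the late proximal tubule (horizontal axis) in each of 16 rats, with a symbol for each group. The normal rats lie apart at 6119 CPM or more of the markers and 544 CPM or more of Slc22a2, and all SIN rats lie at 4718 CPM or less of the markers and 338 CPM or less of Slc22a2.

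Markers of tubule injury, a sum of 7 genes, lay at 302 to 647 CPM in the normal rats, 581 to 1374 in the DN rats, 791 to 2292 in the SIN20 rats and 501 to 1464 in the SIN40 rats. In DN over normal, 2 of 6 tested genes were higher and 1 lower, against 8.74% and 10.8% of all genes. Thick ascending limb markers ran from 4974 to 6013 CPM in the normal and from 2591 to 4111 in the DN rats, with 2 of 5 lower (10.8% of all genes). Stroma and smooth muscle markers ran from 239 to 360 CPM in the normal, 294 to 787 in the DN and 220.5 to 309.8 in the SIN rats. Liver, where Slc22a7 and Abcc2 are also expressed, was represented by 4 hepatocyte markers, whose sum was 0.488 to 0.742 CPM in the normal, 0.796 to 1.54 in the DN, 2.27 to 5.79 in the SIN20 and 1.31 to 3.30 in the SIN40 rats. Only Serpina1 of these passed the filter on low counts, and it was higher in SIN20 over normal (log2 fold change 3.25, SE 0.74, edgeR adjusted p = 0.0294). Without DN replicate 3, the rat with the highest stroma sum, 1 of the 9 transporter genes was called in DN over normal, where 16.2% of all genes were. The number was also 1 without DN replicate 1 or 2 or normal replicate 1 or 3, and 0 without normal replicate 4. In the fit without DN replicate 3, whose further counts were chosen after seeing the data, an unadjusted p under 0.05 was reached by 4 of 9 genes in DN over normal (35.5% of all genes) and by 3 of 9 at each SIN dose over DN, again Slc22a2, Slc22a7 and Slc22a12, all lower (6.28% of all genes were lower at 20 mg/kg and 7.75% at 40 mg/kg). Groups did not overlap in 3 of 9 genes in DN over normal, 2 in SIN20 over DN and 3 in SIN40 over DN, where the shares of all genes were 31.1%, 15.6% and 18.1%. The part of the marker lists in the results was not tested.

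Rat-to-rat variation linked some transporters and not others. After removal of the group means, Slc22a6 and Slc22a8 had a Pearson r of 0.91 over 16 rats, the highest of the 36 pairs. Both genes of a pair are read from the same library at its depth, and the correlations ran from -0.63 (Slco4c1 with Slc22a6) to 0.91, with 20 of 36 positive. Slc22a7 and Abcc4 reached 0.72 and Slc47a1 and Abcc2 0.68. With the summed proximal tubule markers the correlation was 0.88 for Slc22a6, 0.83 for Slc22a8, 0.79 for Slc47a1 and 0.66 for Abcc2. It was 0.36 for Slc22a12, 0.10 for Slc22a2, 0.04 for Slc22a7, 0.01 for Abcc4 and -0.50 for Slco4c1. The ratio of Slc22a8 to Slc22a6, both in CPM per kilobase, was 0.795 ± 0.0117 (SD, n = 4) in normal, 0.873 ± 0.160 in DN, 0.974 ± 0.136 in SIN20 and 0.990 ± 0.0590 in SIN40 rats. The normal rats lay between 0.784 and 0.809 and the SIN40 rats between 0.919 and 1.05, so these groups did not overlap, while the other pairs with the normal group did.

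**Figure D4:**
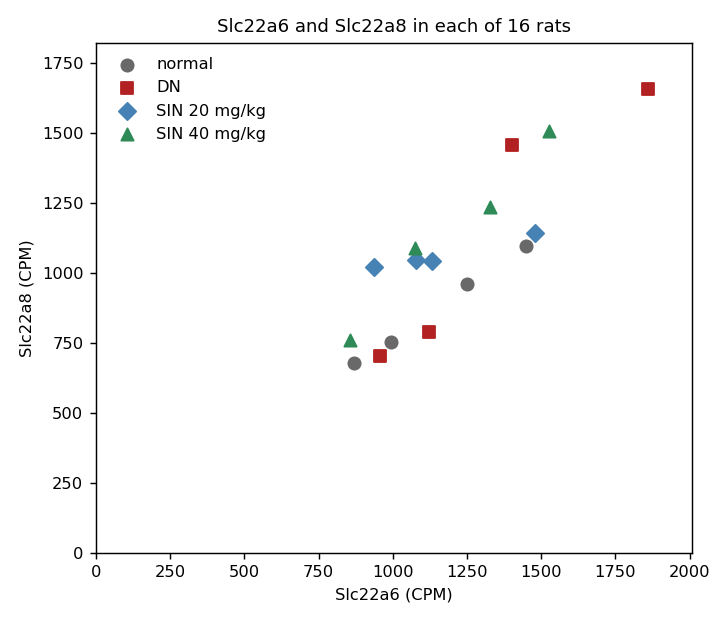
Slc22a8 against Slc22a6 (both in CPM on linear axes from 0) in each of 16 rats, with a symbol for each group. Within groups the genes rise together (r = 0.91 without group means), and the DN rats span the widest range, from 702 to 1657 CPM in Slc22a8.

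**Figure D5:**
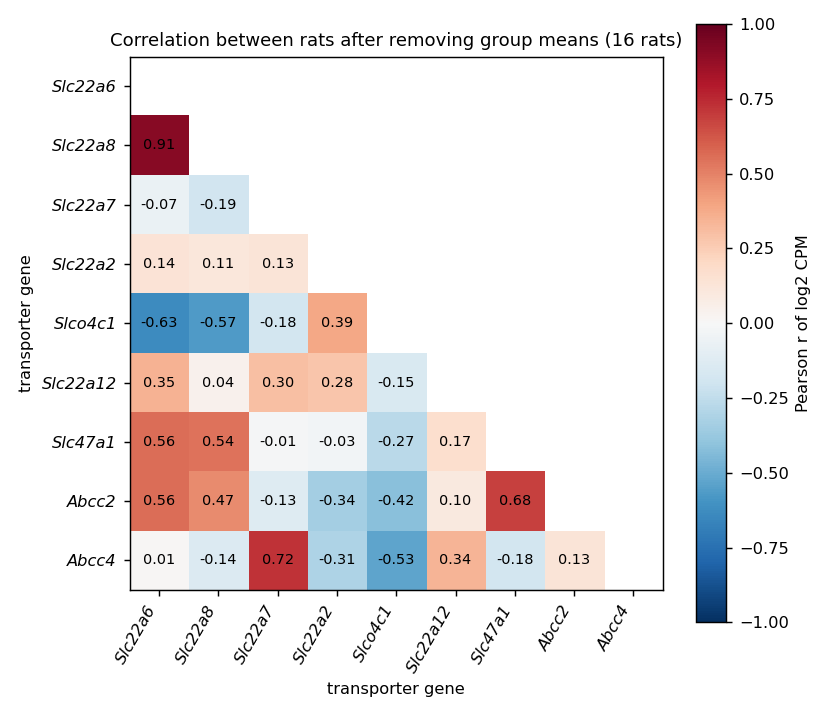
Pearson r of log2 CPM for each of the 36 pairs of transporter genes over 16 rats, after the mean of each group was removed, with red for positive and blue for negative values. Slc22a6 with Slc22a8 stands at 0.91 and Slco4c1 with Slc22a6 at -0.63.

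The genes whose log2 CPM over the 16 rats was most like that of each transporter were searched among 13357 genes with a mean of at least 1 CPM, with differences between groups included. The highest of so many correlations are high in part by selection. For Slc22a2 these were Aspg (r = 0.96), Slc3a1 (0.93) and Rinl (0.93), which fell to 0.79, 0.74 and 0.50 without group means. For Slco4c1 the first was a carrier gene of the same family, Slco1a6 (0.93), then Sema6a (0.91) and Pld1 (0.90). Slc22a6 was most like Cd63, Fbp1 and Ezr (each 0.91), and Slc22a8 most like Nudt16l1 (0.93), Kif12 (0.93) and Aldh7a1 (0.92). Fbp1 encodes a gluconeogenic enzyme of the proximal tubule, and Ezr the brush border protein ezrin. Abcc2 was most like Susd2 (0.92), Pa2g4 (0.90) and Stra6 (0.89), and Abcc4 most like Slc25a33 (0.90), Anks3 (0.89) and Adcy3 (0.87). Slc22a7 was most like Krt7 (0.90), a keratin gene of collecting duct and urothelium, Synpo2l (0.86) and LOC103692166 (0.82). These values fell to 0.72, 0.79 and 0.60 without group means. Slc47a1 was most like Ces2g (0.90), Tollip (0.86) and Lrpap1 (0.86), and Slc22a12 had the lowest first value, with Sap30l (0.87), Cnih1 (0.85) and Prr13 (0.84).

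Beyond the 9 genes, 40 further transporter genes of organic ions were listed, of which 33 were found by symbol. In DN over normal, 5 of 25 tested were higher and 5 lower at an adjusted p under 0.05 by edgeR's quasi-likelihood test, with a median log2 fold change of 0.06. Of all genes, 8.74% were higher and 10.8% lower. In each SIN dose over DN, 0 of 24 were called (0.0% of all genes), with medians of -0.09 and -0.01. Slco1a1, an organic anion carrier of the luminal membrane, averaged 35.1 ± 13.4 CPM (SD, n = 4) in the DN and 232 ± 35.6 CPM in the normal group, a log2 fold change of -2.73 (SE 0.26, adjusted p = 0.00169). Slco1a6 of the same family was at 169 ± 41.4 and 421 ± 64.1 CPM, with -1.32 (SE 0.19, adjusted p = 0.0048). Slc15a2, a peptide carrier gene, was lower at -0.56 (adjusted p = 0.0117) and Slc22a25, the neighbour of Slc22a8 on chromosome 1, at -0.64 (adjusted p = 0.0164). Higher were Slc17a4, a phosphate and urate carrier gene, at 1.18 (adjusted p = 0.0121), and Slco2a1, a prostaglandin carrier gene, at 0.65 (adjusted p = 0.018).

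Of 20 partners and regulators of these carriers, which included dicarboxylate carriers that feed anion exchange, scaffold proteins and transcription factors, 19 were tested. Nr1i2, the xenobiotic receptor PXR, was higher in DN over normal, at 20.6 ± 3.28 against 14.7 ± 2.17 CPM (SD, n = 4), and its log2 fold change was 0.49 (SE 0.15, edgeR quasi-likelihood adjusted p = 0.0497). The other 18 did not pass, where 19.5% of all genes did, and the median was -0.14. In either SIN group over DN 0 of 19 were called (0.0% of all genes).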

How the data were processed

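Kidney mRNA of 16 rats was isolated with oligo(dT) beads, sequenced in pairs on an Illumina platform, trimmed with SeqPrep and Sickle and aligned with TopHat 2.1.1 to Rnor_6.0; the submitters' processing notes also list Bowtie, RSEM and edgeR. The authors deposited estimated counts per gene, not normalized, in a single table. Of its nonzero values, 74.3% were whole, and all were rounded. Columns were matched to rats by library number; 4 columns of libraries without a sample record, and the deposited group means, were not used.

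Each pair of groups was fitted with edgeR 4.0.16 (quasi-likelihood, two-sided, TMM, filterByExpr, group as the only term) in R 4.3.3, and p-values were adjusted by Benjamini-Hochberg over all genes tested. Each SE was derived from the quasi-likelihood test, as the absolute log2 fold change divided by the square root of the F statistic. It therefore carries the same information as the p-value. Log2 CPM used a prior count of 2. P-values test the difference between 2 groups against the spread between rats within the groups. They do not account for any library batch that followed the serial numbers, which could not be told apart from group. The steps were tested on simulated data. Alternatives were DESeq2 1.42.0, edgeR's exact test, RLE scaling, no filter, at least 10 counts per rat, one fit of all 16 rats, the replicate number as a block, and each rat left out. Gene lengths are those in the table, whose derivation is not given in the sources used here. All 9 transporters were reported in every comparison; of the further lists, the up to 6 called genes with the smallest adjusted p in DN over normal or SIN over DN, and for likeness the 3 highest correlations. The genes and lists were chosen with earlier results of these data known. Promoters came from RefSeq (GRCr8), and no genome was used. Figures were drawn in Python 3.11.15 with matplotlib 3.10.9.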

Additional observations from a re-analysis of the deposited data

Results flagged for a closer look

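In the SIN40 group, Slc22a2 was at 338.3 CPM in replicate 3, while the other 3 rats lay between 262 and 269.9 CPM, so this rat stood apart from its group by Dixon's criterion for 4 samples. The criterion was applied to 36 sets of 4 rats, the 9 genes in 4 groups, and chance alone sets apart about 1 in 20. This rat is the one that overlapped with the DN group in Slc22a2.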

How the results depend on the processing

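For the log2 fold changes of the 9 genes in all 6 comparisons, 720 of 810 values under the alternatives kept the direction and side of the threshold, 39 lost a call, 18 gained one and 33 changed sign. Every change of sign came from leaving out 1 rat, in genes near 0: over DN at 20 mg/kg Slc22a8 ranged from -0.29 to 0.12, Slco4c1 from -0.11 to 0.12, Slc47a1 from -0.08 to 0.11 and Abcc4 from -0.18 to 0.06, and at 40 mg/kg Slc22a6 from -0.29 to 0.06, Slc22a8 from -0.18 to 0.24, Slco4c1 from -0.21 to 0.01 and Slc47a1 from -0.04 to 0.16. In SIN40 over SIN20 Slc22a6 ranged from -0.09 to 0.19, Slc22a8 from -0.05 to 0.27, Slc22a2 from -0.02 to 0.17 and Slco4c1 from -0.20 to 0.04, and over normal Slc22a6 ranged from -0.12 to 0.16 at 20 mg/kg and from -0.07 to 0.21 at 40 mg/kg. Slc22a12, at 0.00 in SIN40 over SIN20, ranged from -0.15 to 0.21.

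With 1 rat left out, the number of the 9 genes called ranged from 0 to 3 in DN over normal (3 with all rats), 1 to 2 in SIN20 over normal (2) and 2 to 4 in SIN40 over normal (4), with fewer rats in each fit. The share of all genes called ranged from 4.81% to 23.6%, 3.42% to 7.66% and 2.89% to 6.37% in these fits. DESeq2 called 1 of the 9 genes in SIN20 over DN (1.74% of all genes) and 3 in SIN40 over DN (3.1%), and edgeR's exact test called 1 in the latter (1.02%), where the quasi-likelihood test called 0; the cause was not tested. With the replicate number as a block, 1 of the 9 genes was called in DN over normal (8.4% of all genes), 3 in SIN20 over normal (4.77%), 5 in SIN40 over normal (7.98%) and 0 in the other comparisons (0.0% of all genes). Deviations of rats with the same number correlated between -0.239 and 0.245. The labels do not say what the number stands for. Whether rats with the same number share a litter or batch was not tested. Relative to the proximal tubule markers, Slc47a1 differed by -0.09 between DN and normal, by -0.26 without the markers subtracted, and by -0.33 without Slc7a13 and Slc5a12 among them, an alternative chosen after seeing the data under which Slc22a6 moved from 0.38 to 0.14 and Abcc2 from 0.78 to 0.54.

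With 4 rats per group, calls near the threshold rest on single rats, and Slc22a7 rests on 182 to 810 counts per rat.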
